A study of Homo sapiens with 8 samples.

Results

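The cytosolic sulfotransferases and the hydroxysteroid dehydrogenases described here are 9 genes: SULT2A1, SULT1A1, SULT1B1, SULT1C2, SULT1E1, SULT2B1, HSD3B1, HSD17B2 and HSD11B2. They were chosen by gene symbol in the platform's probe table and comprise 6 sulfotransferases and 3 dehydrogenases, represented by 13 of the 22277 probe sets on the array. The set was picked because SULT2A1 and HSD3B1 were much lower in Caco-2 cells given the shRNA, so the Caco-2 shRNA values of all 9 genes, and their differences between the lines in response, are descriptions without a test. Tests are given for SULT1A1, SULT1C2 and HSD17B2 alone, in HUG1N cells and between the control arrays of the lines. SULT2A1, HSD3B1, SULT1E1 and SULT2B1 each passed the filter through 1 line alone and are described only. Of the 9 genes, 7 passed a filter on low values, as did 7696 of the 11963 genes on the array.

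Gene expression was measured on 8 arrays in 4 groups of 2: HUG1N cells given GATA6 shRNA, HUG1N control cells, Caco-2 cells given GATA6 shRNA and Caco-2 control cells. HUG1N, also labelled HuG-1, is a human gastric cancer line, and Caco-2 is a human colorectal cancer line that can take on features of small intestinal epithelium. GATA6 is a transcription factor of the gut epithelium, and a short hairpin RNA (shRNA) lowers the messenger RNA it is directed against. The labels give infection with the GATA6 shRNA and puromycin selection as the treatment, give no separate treatment for control cells, and name no separate cultures for the 2 arrays of a group, so the p-values cover the spread between arrays alone, and that spread may be technical. Values are log2 expression; their common lowest value was 2.08, and a level was treated as low where no array of a group exceeded 4.

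Cytosolic sulfotransferases transfer a sulfate group from the donor PAPS to steroids, bile acids, thyroid hormones and phenols, which makes them more soluble and usually less active. Hydroxysteroid dehydrogenases oxidise or reduce steroids at fixed carbon atoms and so make or inactivate hormones. Both families are known in liver and intestine, where they act on hormones, bile acids and compounds from food before these reach the circulation.

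Promoter windows were given for 6 of the 9 genes and not for SULT1A1, HSD17B2 and HSD11B2. The windows of SULT2A1 and HSD3B1 are shown because these genes were the ones the choice rests on and because GATA6 belongs to a family that binds GATA words. Capitals mark the word AGATAA or AGATAG, or either with T as its first base (TGATAA, then TGATAG with a last G), searched on both strands. The sequences are from RefSeq on GRCh38.p14, 5′ to 3′ along the gene, SULT2A1 at chr19:47886266-47886565 on the minus strand and HSD3B1 at chr1:119506953-119507252 on the plus strand.
SULT2A1: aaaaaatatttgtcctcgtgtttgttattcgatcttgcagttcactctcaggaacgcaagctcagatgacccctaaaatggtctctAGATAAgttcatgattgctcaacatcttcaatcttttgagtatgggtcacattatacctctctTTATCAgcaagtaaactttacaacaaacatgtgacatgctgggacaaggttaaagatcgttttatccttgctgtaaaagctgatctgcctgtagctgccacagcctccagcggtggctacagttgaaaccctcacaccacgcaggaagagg
HSD3B1: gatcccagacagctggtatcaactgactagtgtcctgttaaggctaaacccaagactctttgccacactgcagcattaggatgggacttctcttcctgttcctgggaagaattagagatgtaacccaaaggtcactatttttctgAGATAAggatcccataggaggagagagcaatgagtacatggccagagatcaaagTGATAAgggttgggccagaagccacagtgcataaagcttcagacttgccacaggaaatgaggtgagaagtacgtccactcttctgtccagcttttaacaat
In SULT2A1, AGATAA began 164 bases before the transcript start, and TGATAA lay on the opposite strand with its match beginning 101 bases before the start. In HSD3B1, AGATAA began 105 and TGATAA 51 bases before the start; the table held 2 overlapping windows of this gene, whose starts are 7 bases apart. The windows of SULT1B1, SULT1C2, SULT1E1 and SULT2B1 held none of the words. Of all 35116 promoter windows in the table, 25.0% held at least 1, so 2 of 6 is a description and says nothing of binding. A nuclear receptor word, AGGTCA, was in the windows of SULT1C2 and HSD3B1 and in 13.8% of all windows, and an HNF1 word, GTTAAT, was in that of SULT1E1 and in 6.88% of all windows.

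GATA6 messenger RNA remained abundant in the shRNA arrays of both lines. In HUG1N cells its log2 level was 12.26 and 12.22 with the shRNA, against 12.54 and 12.45 in controls, a difference of -0.25 with a limma adjusted p of 0.0879. In Caco-2 cells it was 12.23 and 12.02 with the shRNA, against 12.63 and 12.45 in controls, a difference of -0.42 ± 0.10 (SE, n = 2 arrays each; limma adjusted p = 0.0224). That call was lost without Caco-2 shRNA replicate 2 (adjusted p = 0.0949) and without Caco-2 control replicate 1 (adjusted p = 0.112). An array measures RNA and not GATA6 protein.

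All 8 epithelial markers were above the low range in every group. Of 12 intestinal markers, 9 were above it in Caco-2 shRNA and 10 in Caco-2 control arrays, with summed log2 levels of 14.54 to 14.62 and 15.71 to 15.76; in HUG1N the counts were 5 with the shRNA and 6 in controls, with sums of 14.40 on both shRNA arrays and 14.31 to 14.38 in controls. Of 11 stomach markers measured, Caco-2 had TFF1, TFF2 and MUC6 in both groups, with a summed log2 level of 8.60 to 8.80 with the shRNA and 11.89 to 11.98 in controls. HUG1N had 6 of them with the shRNA and 7 in controls, with sums of 14.47 to 14.72 and 15.14 to 15.23. Of 11 hepatocyte markers, 8 were above the low range in both Caco-2 groups, with sums of 15.81 to 15.95 with the shRNA and 16.92 to 17.01 in controls, against 3 in HUG1N shRNA and 1 in HUG1N control arrays. None of 8 adrenal and gonadal markers was above it in any group. Of 9 trophoblast markers only TFAP2C and, in Caco-2, GATA3 were, and their list's sum in Caco-2 was 12.21 to 12.39 with the shRNA and 9.24 to 9.62 in controls. COL1A1 was the 1 fibroblast marker of 10 above the low range in every group, with LUM beside it in Caco-2 shRNA arrays; CD14 was the 1 immune marker of 9, in Caco-2 controls; and the 1 endothelial marker of 7 was EGFL7 in HUG1N and PECAM1 in Caco-2, whose controls had both. In HUG1N the beta-actin signal was 3.73 ± 0.06 higher in 3′ than 5′ probes with the shRNA and 2.51 ± 0.23 in controls, and the hybridisation controls averaged 10.63 ± 0.03 and 12.51 ± 0.13 (SD, n = 2 each). In Caco-2 the same gap was 1.55 ± 0.13 with the shRNA and 1.92 ± 0.02 in controls, and the hybridisation controls averaged 12.13 ± 0.10 and 12.25 ± 0.13. The part of these differences in the results below was not tested, and in bulk RNA fewer cells of a type and less RNA per cell cannot be told apart.

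SULT2A1 sulfates dehydroepiandrosterone, other hydroxysteroids and bile acids. Its brighter probe set, 206293_at, read 5.42 and 3.97 in Caco-2 shRNA arrays, against 10.86 and 10.64 in Caco-2 controls. Both shRNA arrays lay far below both controls, and the shRNA arrays themselves differed by more than the controls did (SD 1.03 and 0.16). The mean difference was -6.06 ± 0.44 (SE), which put the shRNA arrays at 1.50% of the control level (95% interval 0.720 to 3.12%). The interval makes no allowance for the choice of the gene by this difference, and shRNA replicate 2 lay under 4. The difference moved with the shRNA array used: it was -6.79 without shRNA replicate 1 and -5.33 without shRNA replicate 2. A second probe set, 206292_s_at, read 2.16 and 2.13 in shRNA arrays, at the array's lowest range, against 9.06 and 8.92 in controls, a difference of -6.85 on the log2 scale whose shRNA side is only a bound.

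In HUG1N cells SULT2A1 was in the low range throughout. Probe set 206293_at read 3.92 and 3.92 with the shRNA, against 3.55 and 3.92 in controls, and 206292_s_at lay between 2.08 and 2.09 on all 4 arrays. With both groups low there is no fold change to give. The log2 difference for 206293_at was 0.18, a description without a test, since the gene passed the filter only through Caco-2 arrays. Between the lines, SULT2A1 was at least 108-fold lower in HUG1N control than in Caco-2 control arrays, a description because the gene was picked for its Caco-2 values. A fall in HUG1N of the size seen in Caco-2 could not have been seen from this starting level.

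HSD3B1 makes progesterone from pregnenolone and androstenedione from dehydroepiandrosterone, and is well known in placenta and skin. It read 4.58 and 3.16 in Caco-2 shRNA arrays, against 9.48 and 9.82 in Caco-2 controls. As with SULT2A1, the shRNA arrays were both far below the controls and were spread wider (SD 1.01 and 0.24). The difference was -5.78 ± 0.42 (SE), but the shRNA mean of 3.87 lay under 4, so its size on that side is uncertain; with values under 4 set to 4 it was -5.36. It was -6.49 without shRNA replicate 1 and -5.07 without shRNA replicate 2. In HUG1N cells HSD3B1 was 2.34 on all 4 arrays, at least 50.2-fold lower in HUG1N control than in Caco-2 control arrays. The trophoblast sum given above rose with the shRNA in Caco-2, where HSD3B1 fell, and that sum rests on TFAP2C and GATA3 alone. Its part in the HSD3B1 values was not tested.

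HSD17B2 oxidises estradiol to estrone and testosterone to androstenedione. It read 6.95 and 6.61 in Caco-2 shRNA arrays, against 10.19 and 10.19 in Caco-2 controls, and so kept a measurable level in the shRNA arrays where SULT2A1 and HSD3B1 came near the low range. The difference was -3.41 ± 0.23 (SE), 9.40% of the control level (95% interval 6.38 to 13.9%). The values of HUG1N cells had no part in choosing the genes, and there HSD17B2 fell to 2.53 and 2.96 with the shRNA, against 4.10 and 4.66 in controls. The groups did not overlap, the log2 difference was -1.64 ± 0.23 (SE, n = 2 arrays each; limma adjusted p = 0.00203), and the change was at least 1.30-fold, since the shRNA side was in the low range. The call was lost when values under 4 were set to 4 (log2 difference -0.38, limma adjusted p = 0.152). HSD17B2 was 56.0-fold lower in HUG1N control than in Caco-2 control arrays (log2 difference -5.81 ± 0.23, limma adjusted p = 1.78e-06).

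HSD11B2, which turns cortisol into cortisone and so shields the mineralocorticoid receptor, did not pass the filter. It read 2.11 and 2.13 in HUG1N shRNA and 2.13 and 2.20 in HUG1N control arrays. In Caco-2 it read 2.11 and 2.11 with the shRNA and 2.61 and 2.13 in controls. All 8 values are near the floor, so no change could be read from this probe set.

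**Figure D1:**
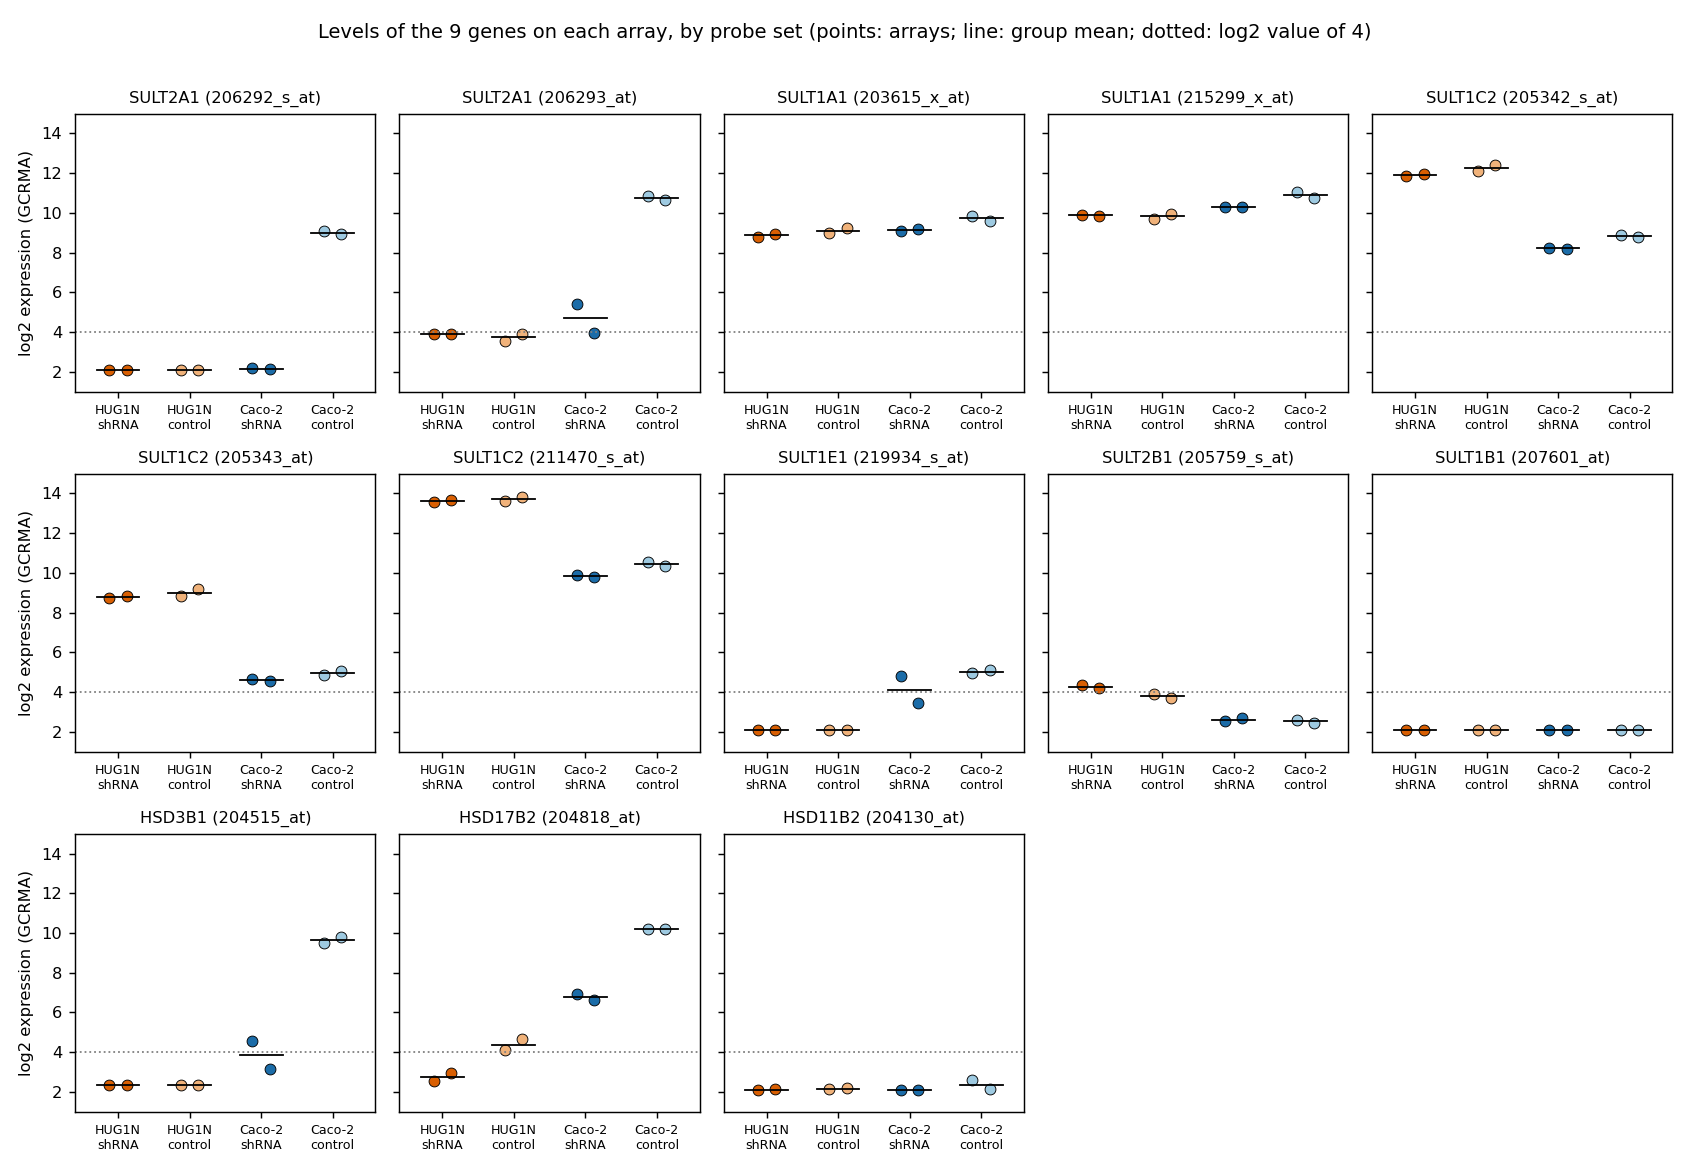
Log2 expression (vertical axis) of the 13 probe sets of the 9 genes on each of the 8 arrays, with HUG1N shRNA, HUG1N control, Caco-2 shRNA and Caco-2 control groups along the horizontal axis; points are arrays, short lines group means and the dotted line the value 4 below which a level is called low. SULT2A1, HSD3B1 and HSD17B2 stand highest in Caco-2 controls, SULT1C2 stands highest in both HUG1N groups, and SULT1B1 and HSD11B2 lie near the floor throughout.

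SULT1A1, which sulfates phenols and many drugs, was high in all 4 groups. Its brighter probe set, 215299_x_at, read 9.87 and 9.86 in HUG1N shRNA arrays, against 9.70 and 9.94 in HUG1N controls. The shRNA values lay between the control values, with a log2 difference of 0.05 (95% interval -0.25 to 0.35; limma adjusted p = 0.779). In Caco-2 it read 10.30 and 10.28 with the shRNA, against 11.05 and 10.76 in controls, a difference of -0.62 ± 0.12 (SE), or 65.3% of control. Its other probe set, 203615_x_at, read 9.09 and 9.21 in Caco-2 shRNA and 9.84 and 9.61 in Caco-2 control arrays, a difference of -0.58, and in HUG1N 8.78 and 8.95 with the shRNA and 8.97 and 9.23 in controls. Both are of a design that can bind near-identical genes, so part of the signal may come from SULT1A3 and SULT1A4. The 2 brighter probe sets named for those genes, which are no members, averaged 10.30 and 10.87 in Caco-2 shRNA and 10.89 and 11.69 in Caco-2 control arrays. By 215299_x_at, SULT1A1 was 2.12-fold lower in HUG1N control than in Caco-2 control arrays (log2 difference -1.08 ± 0.12, limma adjusted p = 0.000234). By 203615_x_at the log2 difference was smaller, -0.63 (limma adjusted p = 0.00463 with every probe set fitted on its own). The SULT1A3 and SULT1A4 probe sets were also lower in HUG1N control arrays, averaging 9.52 and 10.26.

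SULT1C2, a sulfotransferase of phenols, was high in both lines and higher in HUG1N. Its brightest probe set, 211470_s_at, read 13.58 and 13.67 in HUG1N shRNA arrays, against 13.60 and 13.83 in HUG1N controls, and 9.91 and 9.81 in Caco-2 shRNA arrays, against 10.57 and 10.36 in Caco-2 controls. By this probe set the order of levels was HUG1N control, HUG1N shRNA, Caco-2 control, Caco-2 shRNA, of which the HUG1N groups overlapped. HUG1N control exceeded Caco-2 control 9.52-fold (log2 difference 3.25 ± 0.11, limma adjusted p = 1.02e-06). The shRNA difference in HUG1N was -0.09 (95% interval -0.36 to 0.18; limma adjusted p = 0.544), and in Caco-2 it was -0.61 ± 0.11 (SE), or 65.7% of control. The other probe sets, 205342_s_at and 205343_at, differed by -0.60 and -0.35 in Caco-2, and by -0.33 and -0.23 in HUG1N. In HUG1N 205342_s_at read 11.88 and 11.97 with the shRNA, against 12.10 and 12.42 in controls, without overlap. There 205343_at read 8.75 and 8.82, against 8.84 and 9.19, also without overlap. Neither was called in HUG1N with every probe set fitted on its own (limma adjusted p = 0.0566 and 0.214).

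SULT1E1, which inactivates estrogens, was low but measurable in Caco-2. It read 4.80 and 3.45 in shRNA arrays, against 4.96 and 5.10 in controls; the shRNA arrays lay further apart than the means of the groups. The difference of -0.90 ± 0.39 (SE) was -1.58 without shRNA replicate 1 and -0.23 without shRNA replicate 2, so it rests on 1 array. In HUG1N all 4 arrays read 2.08, the floor, and SULT1E1 was at least 2.04-fold lower in HUG1N control than in Caco-2 control arrays. It passed the filter only through Caco-2 arrays, where it is higher, so no test of that difference is given. In each of SULT2A1 (206293_at), HSD3B1, HSD17B2 and SULT1E1, Caco-2 shRNA replicate 2 read below replicate 1.

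SULT2B1, which sulfates cholesterol and pregnenolone, was at the edge of detection. It read 4.37 and 4.19 in HUG1N shRNA arrays, against 3.89 and 3.70 in HUG1N controls, and the groups did not overlap (log2 difference 0.48 ± 0.11, SE). It passed the filter only through those shRNA arrays, so the difference is a description without a test. In Caco-2 it read 2.53 and 2.68 with the shRNA and 2.61 and 2.44 in controls, in the low range. SULT1B1, which sulfates thyroid hormones and phenols, lay at the floor on all arrays and did not pass the filter.

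In HUG1N, HSD17B2 was called lower with the shRNA, where 23.9% of all genes tested were called lower and 24.7% higher. Between control arrays of the lines, SULT1A1 and HSD17B2 were called lower and SULT1C2 higher in HUG1N, where 41.3% of all genes were called lower and 37.1% higher. SULT2A1, HSD3B1, SULT1E1 and SULT2B1 are left out of these statements because of how they passed the filter, and SULT2B1 was low in the controls of both lines.

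**Figure D2:**
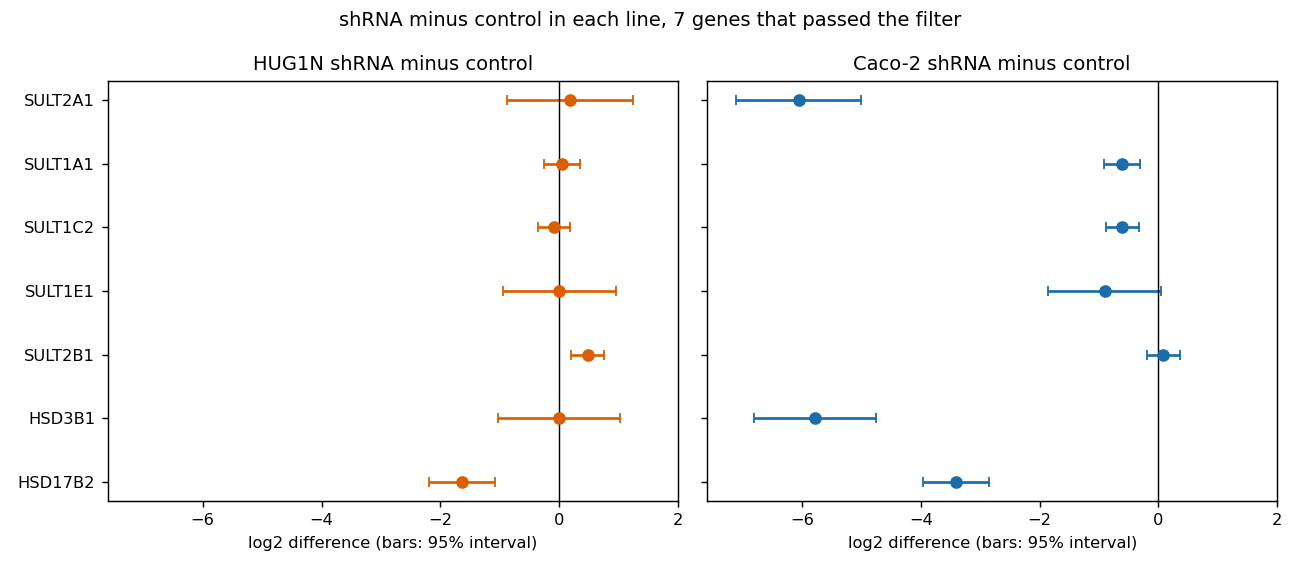
Log2 difference of shRNA minus control (horizontal axis) for the 7 genes that passed the filter (vertical axis), in HUG1N on the left and Caco-2 on the right; points are limma estimates over 2 arrays a group and bars their 95% intervals. HSD17B2 lies below 0 in both lines, at -1.64 and -3.41, while SULT2A1 and HSD3B1 lie far below 0 in Caco-2, at -6.06 and -5.78, and near 0 in HUG1N, where both groups were low. The bars make no allowance for the choice of SULT2A1 and HSD3B1 by their Caco-2 differences.

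The genes whose levels ran most like SULT2A1 over the 8 arrays, by Pearson correlation of log2 values as a description, were LGR5 (r = 0.997), PHC1 (0.993), KCNK10 (0.992), GPR161 (0.989) and SERPINC1 (0.988). For HSD3B1 they were LGR5 (0.999), ADCY1 (0.995), SERPINC1 (0.995), ZNF204P (0.994) and LINC00574 (0.993), and SULT2A1 and HSD3B1 correlated at 0.994. The 8 points fall into 4 groups, and all these genes were highest in Caco-2 controls, though PHC1, KCNK10, LINC00574 and ZNF204P averaged no more than 4.23, 4.19, 4.51 and 4.95 there. LGR5, a receptor and a marker of intestinal stem cells, averaged 3.47 in Caco-2 shRNA and 9.03 in Caco-2 control arrays, and 2.27 in HUG1N shRNA and 2.20 in HUG1N control arrays.

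Related genes were taken from 11 lists of 200 genes, of which 86 were tested. In HUG1N 18 rose and 33 fell with the shRNA, with a median log2 difference of -0.22, where 23.9% of all genes were called lower and 24.7% higher. In Caco-2 14 rose and 30 were called lower, with a median of -0.12, where 19.2% of all genes were called lower and 19.5% higher. The median over all genes was 0.00 in both lines. The difference between the lines in response was itself called for 26 genes as higher and 24 as lower in HUG1N, against 22.2% and 22.7% of all genes. The list of other cytosolic sulfotransferases had 7 genes, of which 0 passed the filter. The counts of single lists below are descriptions, to be read against these shares of all genes in the same line.

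**Figure D3:**
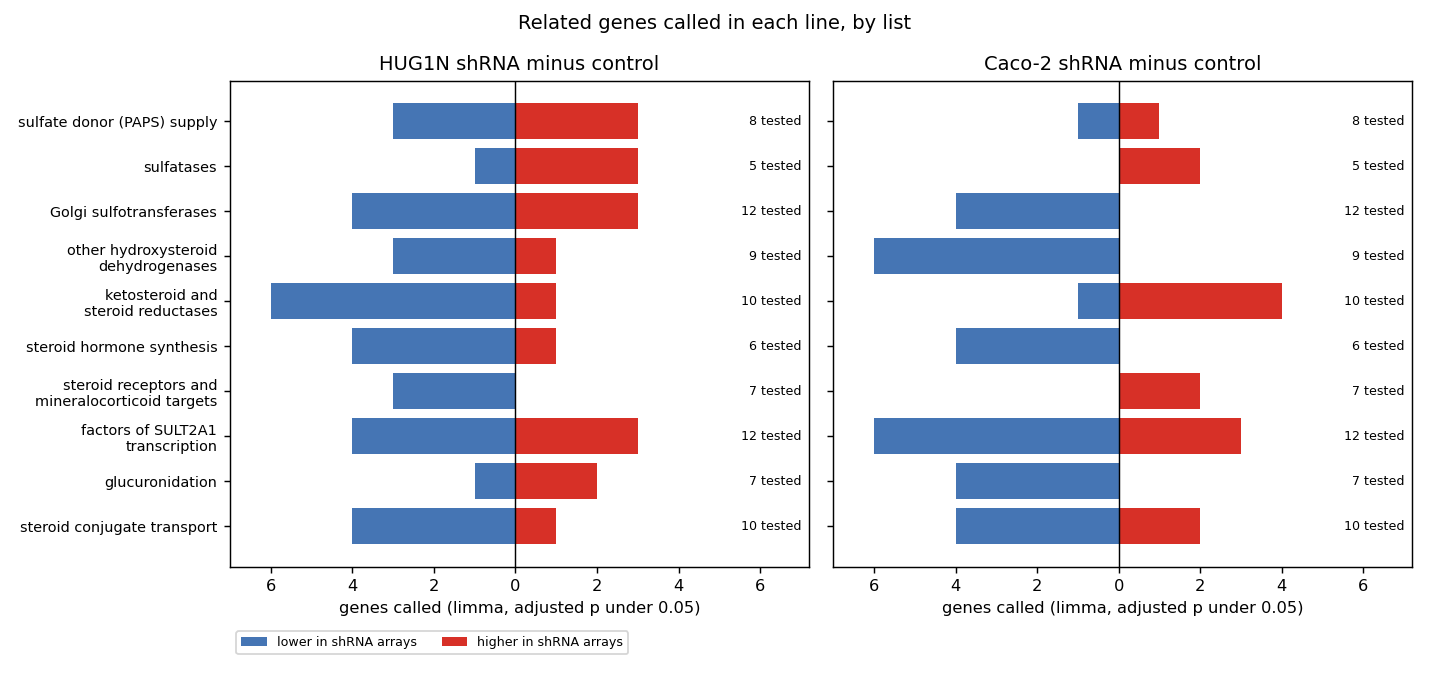
Number of tested genes called with the shRNA (horizontal axis, limma adjusted p under 0.05) for 10 lists of related genes (vertical axis), in HUG1N on the left and Caco-2 on the right; bars to the left of 0 count genes that fell, bars to the right genes that rose, and the number tested stands at the edge. In Caco-2, 6 of 9 other hydroxysteroid dehydrogenases fell and 0 rose, while in HUG1N 6 of 10 ketosteroid and steroid reductases fell and 1 rose. Of all genes tested, 19.2% were called lower and 19.5% higher in Caco-2, and 23.9% and 24.7% in HUG1N.

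Of the 9 other hydroxysteroid dehydrogenases tested, 6 fell and 0 rose in Caco-2, with a list median of -0.44. In HUG1N 3 fell and 1 rose, with a median of 0.05. In both lines fewer fell without most single arrays. The number was lowest in Caco-2 without Caco-2 control replicate 1, and in HUG1N without HUG1N control replicate 2 or HUG1N shRNA replicate 2. In Caco-2 more fell without either HUG1N shRNA array. HSDL2, a peroxisomal member of the family whose substrate is not settled, fell in both lines. It read 8.81 and 8.76 in HUG1N shRNA arrays, against 10.45 and 10.33 in HUG1N controls, and 9.65 and 9.52 in Caco-2 shRNA arrays, against 11.72 and 11.67 in Caco-2 controls. These are differences of -1.60 ± 0.08 in HUG1N (limma adjusted p = 7.37e-05) and -2.11 ± 0.08 in Caco-2 (limma adjusted p = 1.84e-05; SE). HSD17B4, which also serves peroxisomal breakdown of fatty acids, fell in Caco-2, to 11.78 and 11.70 with the shRNA, against 12.47 and 12.54 in controls (-0.77 ± 0.08, limma adjusted p = 0.000826); in HUG1N its difference was 0.05. HSD17B10, a mitochondrial enzyme, rose by 0.30 in HUG1N and fell by 0.44 in Caco-2 (limma adjusted p = 0.0212 and 0.00635). The HUG1N call of HSD17B10 was lost without HUG1N shRNA replicate 1 (adjusted p = 0.0851) and without HUG1N control replicate 2 (adjusted p = 0.0912).

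Of the 10 ketosteroid and steroid reductases tested, 1 rose and 6 fell in HUG1N, and 4 rose and 1 fell in Caco-2, with list medians of -0.47 and 0.15. AKR1C1, AKR1C2 and AKR1C3, which reduce progesterone and androgens, fell in HUG1N and rose in Caco-2. AKR1C2 read 14.74 and 14.57 in HUG1N shRNA arrays, against 15.10 and 15.15 in HUG1N controls, and 14.29 and 14.20 in Caco-2 shRNA arrays, against 12.77 and 12.70 in Caco-2 controls. Its differences were -0.47 ± 0.08 in HUG1N (limma adjusted p = 0.00501) and 1.51 ± 0.08 in Caco-2 (limma adjusted p = 7.48e-05). AKR1C1 differed by -0.46 and 1.19, and AKR1C3 by -0.41 and 0.81, in HUG1N and Caco-2. These genes are near-identical in sequence, so their probe sets may share signal and are not separate observations. SRD5A1, which reduces testosterone to dihydrotestosterone, rose in HUG1N (0.44 ± 0.08, limma adjusted p = 0.00661), and DHRS9, a retinol and steroid dehydrogenase, fell there (-1.04 ± 0.12, limma adjusted p = 0.00107).

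The sulfatases, which remove sulfate groups, included 3 genes of 5 that rose and 1 that fell in HUG1N, and 2 that rose and 0 that fell in Caco-2. STS, steroid sulfatase, which undoes the work of SULT2A1 and SULT1E1, rose in both lines. It read 8.69 and 8.93 in HUG1N shRNA arrays, against 7.17 and 6.93 in HUG1N controls, and 9.13 and 8.87 in Caco-2 shRNA arrays, against 8.24 and 7.92 in Caco-2 controls. The differences were 1.76 ± 0.16 in HUG1N (limma adjusted p = 0.000481) and 0.92 ± 0.16 in Caco-2 (limma adjusted p = 0.00649). A second probe set of STS, 203769_s_at, moved less, by 0.41 in HUG1N and 0.19 in Caco-2. The lysosomal sulfatases GALNS and SGSH rose in HUG1N by 0.68 and 1.06 (limma adjusted p = 0.00196 and 0.00416). IDS, also lysosomal, was called lower in HUG1N (-0.49, limma adjusted p = 0.0159), but the mean of its probe sets was 0.22 higher there, and the call was lost without HUG1N shRNA replicate 1 (adjusted p = 0.0513), shRNA replicate 2 (0.0684) or control replicate 1 (0.0791).

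Of the 8 genes of sulfate donor supply, 3 rose and 3 fell in HUG1N, and 1 rose and 1 fell in Caco-2. SLC26A2, which brings sulfate into the cell, rose in HUG1N to 7.70 and 7.53, against 6.59 and 6.56 in controls (1.04 ± 0.08, limma adjusted p = 0.000222), and fell in Caco-2 to 11.76 and 11.78, against 12.34 and 12.36 in controls (-0.58 ± 0.08, limma adjusted p = 0.00220). SUOX, which oxidises sulfite to sulfate, rose in HUG1N (1.83 ± 0.26, limma adjusted p = 0.00201). PAPSS2, which makes PAPS, fell in HUG1N (-0.57 ± 0.11, limma adjusted p = 0.00652), and in Caco-2 its difference was -0.11 (limma adjusted p = 0.493). ETHE1, a mitochondrial enzyme of sulfide oxidation, fell by 0.67 in HUG1N and rose by 0.44 in Caco-2.

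Of the 12 Golgi sulfotransferases, which act on proteins and sugar chains, 3 rose and 4 fell in HUG1N (7 fell without HUG1N shRNA replicate 2), and 0 rose and 4 fell in Caco-2. TPST2, which sulfates tyrosines, fell in HUG1N to 3.53 and 2.81, against 6.03 and 5.73 in controls, at least 3.67-fold (limma adjusted p = 0.000613). TPST1, its paralog, fell in Caco-2 (-1.39 ± 0.21, limma adjusted p = 0.00352), as did HS3ST1, which modifies heparan sulfate (-1.51 ± 0.24, limma adjusted p = 0.00406). CHST15, which sulfates chondroitin sulfate, fell in both lines, by 0.61 in HUG1N and 0.84 in Caco-2 (limma adjusted p = 0.00425 and 0.00171).

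Of the 6 steroid synthesis genes tested, 1 rose and 4 fell in HUG1N, and 0 rose and 4 fell in Caco-2. The 4 in Caco-2 became 1, TSPO, without any 1 of the Caco-2 arrays: without Caco-2 control replicate 1 the adjusted p was 0.135 for FDX1, 0.131 for POR and 0.142 for NR5A2. The gene that rose in HUG1N, CYB5A, lost its call without any 1 of the HUG1N arrays or of the Caco-2 control arrays. POR, the electron donor of microsomal P450 enzymes, fell in HUG1N to 9.33 and 9.28, against 10.37 and 10.46 in controls (-1.10 ± 0.07, limma adjusted p = 0.000124). TSPO, an outer mitochondrial membrane protein, fell by 0.95 in HUG1N and 0.47 in Caco-2. Of the 7 steroid receptors and mineralocorticoid targets, 0 rose and 3 fell in HUG1N, and 2 rose and 0 fell in Caco-2. Of the genes that rose in Caco-2, NR3C1 lost its call without Caco-2 shRNA replicate 1, Caco-2 control replicate 1 or Caco-2 control replicate 2 (adjusted p = 0.148, 0.101 and 0.129). NR3C2, the mineralocorticoid receptor that HSD11B2 shields, fell in HUG1N (-1.11 ± 0.16, limma adjusted p = 0.00203) and was low in all Caco-2 arrays. SCNN1A, a subunit of the epithelial sodium channel, rose in Caco-2 (0.69 ± 0.10, limma adjusted p = 0.00292), but not by the mean of its probe sets (0.18, adjusted p = 0.109).

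Of the 12 transcription factors listed for SULT2A1 regulation, 3 rose and 4 fell in HUG1N, and 3 rose and 6 were called lower in Caco-2. Those 6 include GATA4, which was low in both Caco-2 groups and has no fold change there (0.00 with values under 4 set to 4). Without Caco-2 control replicate 1 the Caco-2 counts were 2 and 3. VDR, the vitamin D receptor, rose in Caco-2 to 10.88 and 10.94, against 9.71 and 9.87 in controls (1.12 ± 0.11, limma adjusted p = 0.000746). NR0B2, a corepressor of nuclear receptors, fell in Caco-2 to 3.45 and 4.04, against 5.53 and 5.24 in controls (-1.64 ± 0.21, limma adjusted p = 0.00180). CEBPB, a liver and gut factor, fell by 0.64 in HUG1N and rose by 0.45 in Caco-2. NR1H3, an oxysterol receptor, fell by 0.71 in HUG1N and rose by 0.48 in Caco-2. FOXA1, a factor of gut and liver, rose by 0.73 in HUG1N and fell by 0.50 in Caco-2. In Caco-2 the call of NR1H3 was lost without shRNA replicate 1 (adjusted p = 0.0544) or control replicate 1 (0.0578), and that of FOXA1 without shRNA replicate 1 (0.0707), shRNA replicate 2 (0.0728) or control replicate 1 (0.0947).

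Glucuronidation, the other main conjugation of steroids, had 7 tested genes, of which 2 rose and 1 fell in HUG1N, and 0 rose and 4 fell in Caco-2 with a list median of -0.68. Those 4 include UGT2A3, which passed the filter only through Caco-2 controls (4.52 and 4.49, against 3.62 and 2.65 with the shRNA). Its fall is thus a description, and its call was lost with no filter (limma adjusted p = 0.0548). UGDH, which makes the glucuronic acid donor, fell in Caco-2 (-0.81 ± 0.09, limma adjusted p = 0.00126), and so did GUSB, a lysosomal enzyme that removes the sugar (-0.68 ± 0.08, limma adjusted p = 0.00112). SLC35D1, which carries the donor into the endoplasmic reticulum, rose in HUG1N (2.03 ± 0.33, limma adjusted p = 0.00358). Of the 10 transporters of steroid conjugates, 1 rose and 4 fell in HUG1N, and 2 rose and 4 fell in Caco-2. The 4 in HUG1N became 2 without any 1 array other than HUG1N shRNA replicate 1. SLCO2B1, which takes up estrone sulfate and dehydroepiandrosterone sulfate, rose in HUG1N to 8.12 and 7.96, against 3.78 and 2.84 in controls, at least 16.5-fold (limma adjusted p = 0.000120). Its other 2 probe sets, 203472_s_at and 211557_x_at, differed there by 0.03 and 0.32, so the probe sets of this gene disagree. ABCC4, an exporter of sulfated steroids, fell in HUG1N to 5.24 and 5.04, against 7.14 and 7.09 in controls (-1.98 ± 0.10, limma adjusted p = 7.20e-05), and in Caco-2 to 10.67 and 10.51, against 11.15 and 11.27 in controls (-0.62 ± 0.10, limma adjusted p = 0.00463). ABCC3 rose in Caco-2 (0.82 ± 0.07, limma adjusted p = 0.000348), while ABCC2 fell there (-0.80 ± 0.11, limma adjusted p = 0.00229); both export conjugates, on opposite faces of polarised epithelium.

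**Figure D4:**
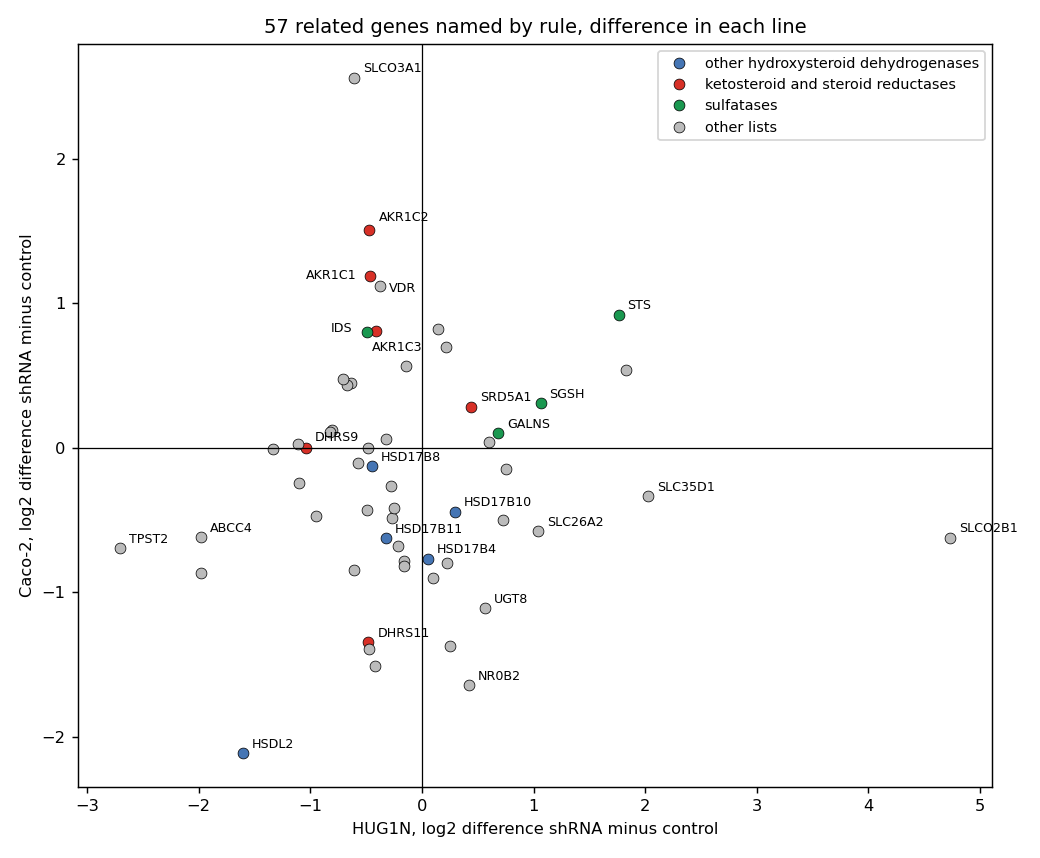
Log2 difference of shRNA minus control in HUG1N (horizontal axis) and in Caco-2 (vertical axis) for the 57 related genes named by rule; each point is 1 gene and the colours mark the dehydrogenases, reductases and sulfatases. HSDL2 lies low on both axes, STS lies above 0 on both, and AKR1C1, AKR1C2 and AKR1C3 lie below 0 in HUG1N and above 0 in Caco-2.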

How the data were processed

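The deposited table holds the authors' log2 expression values for 8 Affymetrix human arrays; GCRMA is the method that the submitters' processing notes name. It corrects background, equalises the arrays' distributions and summarises probes, and its version is not given in the sources used here. No further scaling was applied. Of 22277 probe sets, 19070 had 1 gene symbol, 1043 several and 2164 none; the brightest probe set stood for a gene. Genes over log2 4 on at least 2 arrays were fitted with limma 3.58.1 in R 4.3.3 (means of 4 groups, eBayes; 4 residual degrees of freedom), and p-values were adjusted by Benjamini-Hochberg over all 7696 genes; a call is an adjusted p under 0.05. The fit was tested on simulated data. Where no array of a group exceeded 4, a fold is a bound against 4, without allowance for the brighter group's spread. Intervals are limma's 95% intervals. The number of arrays limits the precision. The members, the 11 lists and the 9 marker lists were chosen with earlier results of these data known. From each list, up to 4 called genes with the smallest p in each shRNA comparison were nameable. Filters, normalization, variance model, probe set choice, a floor, the replicate block and leaving out arrays were tried as alternatives. Promoter windows are from RefSeq.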

Additional observations from a re-analysis of the deposited data

Results flagged for a closer look

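For 44 of the 57 related genes named by rule, the shRNA difference itself differed between the lines, by limma's test of the HUG1N effect minus the Caco-2 effect (adjusted p under 0.05); 13 of them were called in both lines in opposite directions. Of these 13, 6 kept both calls with any 1 array left out, and 7 lost one of them: HSD17B10, IDS, SLCO3A1, UGT8 and VDR in HUG1N, and FOXA1 and NR1H3 in Caco-2. The genes that kept both calls were AKR1C1, AKR1C2, AKR1C3, CEBPB, ETHE1 and SLC26A2. The AKR1C genes among them are near-identical in sequence and are not separate observations. IDS, which lost its HUG1N call, also turned sign there with the mean of its probe sets (0.22). The 9 sulfotransferase and dehydrogenase genes are not among the 57 related genes, since their Caco-2 values were used to choose them. All values here are log2 differences of effects, HUG1N minus Caco-2.

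Among the dehydrogenases and reductases the values were 0.82 for HSD17B4, 0.74 for HSD17B10, 0.51 for HSDL2, -1.65 for AKR1C1, -1.98 for AKR1C2, -1.22 for AKR1C3 and -1.04 for DHRS9. DHRS9 read an identical 4.15 on every Caco-2 array, just over the low range. Its value is thus the HUG1N difference alone, and a fall in Caco-2 could hardly have been seen. Among the genes of sulfate supply and removal they were 1.62 for SLC26A2, 1.29 for SUOX, -1.11 for ETHE1, 0.84 for STS, 0.58 for GALNS and -1.29 for IDS. With the mean of the probe sets the STS and IDS values were 0.19 and -0.34 (limma adjusted p = 0.265 and 0.256). STS and SUOX were uncalled with no filter (limma adjusted p = 0.0867 and 0.103). The Golgi sulfotransferases gave 0.56 for CHST2, 1.09 for HS3ST1, 0.92 for TPST1, -2.01 for TPST2 and -0.48 for UST. HS3ST1 and TPST1 were uncalled with no filter (limma adjusted p = 0.124 and 0.139) and with the replicate block (0.0622 and 0.0722). Both were also uncalled without most single arrays.

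In steroid synthesis and steroid reception the values were -0.86 for POR, -0.48 for TSPO, -0.93 for FKBP4, -1.14 for NR3C2, -0.71 for NR3C1 and -0.48 for SCNN1A. With the mean of its probe sets the SCNN1A value was -0.10 (limma adjusted p = 0.491). Both SCNN1A and NR3C1 were uncalled with quantile normalization, with median centring, with the replicate block and without most single arrays. Among the transcription factors they were -1.09 for CEBPB, -1.49 for VDR, -1.19 for NR1H3, 1.23 for FOXA1, 2.06 for NR0B2, 0.90 for RXRA and 0.62 for GATA4. With the mean of its probe sets the RXRA value was 0.11 (limma adjusted p = 0.450), since 202449_s_at moved by 0.75 in HUG1N and -0.14 in Caco-2, and 202426_s_at by -0.14 and 0.53. In glucuronidation they were 2.36 for SLC35D1, 1.67 for UGT8, 1.62 for UGT2A3, 0.65 for UGDH, 0.47 for GUSB and -0.93 for UGP2. UGT2A3, though counted above, passed the filter only through Caco-2 controls, so its value is a description. The transporters gave 5.36 for SLCO2B1, -3.17 for SLCO3A1, -1.36 for ABCC4, -1.33 for SLCO1B3, 1.03 for ABCC2, 1.003 for SLCO4A1 and -0.68 for ABCC3. The probe sets of SLCO3A1 disagreed. Its 219229_at moved by -0.61 in HUG1N and 2.56 in Caco-2, and 210542_s_at by -2.23 and 0.00, so its opposite directions rest on 219229_at. CHST2, UST, NR3C2 and SLCO1B3 were low in both Caco-2 groups, and ABCC2 and UGT2A3 in both HUG1N groups, so a fall there could not have been seen. GATA4 was low in both Caco-2 groups too. Its value rests on a called difference of -0.78 there (2.97 and 3.06 with the shRNA, against 3.75 and 3.85 in controls), wholly under 4.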

How the results depend on the processing

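With every probe set fitted on its own, which raises the number of features tested, 5941 were called in HUG1N, 9686 between the control arrays, 4489 in Caco-2 and 5408 for the difference between the lines, against 3746, 6032, 2982 and 3457 genes in the fit reported. With a change of at least 2-fold also required, which removes calls by construction, the counts were 903, 3534, 742 and 1404, and those of related genes 15 in HUG1N, 12 in Caco-2 and 26 for the difference between the lines, against 51, 44 and 50. The Caco-2 count ran from 1895 without Caco-2 control replicate 2 to 2974 over the arrays left out in turn, and was 1985 without Caco-2 control replicate 1. The SULT2B1 difference in HUG1N, given without a test, was 0.48 with an intensity trend and robust prior or with HUG1N fitted alone. Those settings change the variance estimate and not the group means, so they keep the difference by construction. The SULT2B1 difference in HUG1N ran from 0.38 to 0.57 over the arrays left out. With values under 4 set to 4 it was 0.28. HSD17B2 in HUG1N was -0.38 and uncalled with values under 4 set to 4; the same setting made the difference of SULT2B1 between the lines 0.00, since both groups are low. With the mean of its probe sets IDS in HUG1N was 0.22 in place of -0.49, and with values under 4 set to 4 the difference of GATA4 between the lines was -0.17. Among the named related genes, leaving out 1 array kept 32 of 42 calls in HUG1N, 29 of 40 in Caco-2 and 33 of 44 differences between the lines; the calls lost include HSD17B10, HSD17B8, HSD17B11, VDR and ESRRA in HUG1N, FOXA1, NR1H3, POR, NR3C1 and SRD5A1 in Caco-2, and STS, HSDL2, SUOX and TPST1 among the differences. Counts of 1 or 2 genes in a list and direction often moved by 1 with an array left out, as for sulfatases, reductases, glucuronidation and sulfate supply. The replicate numbers did not pair the arrays (correlations of deviations between -0.063 and 0.066). With the replicate block 3604 genes were called in HUG1N, 5975 between controls, 2732 in Caco-2 and 3240 for the difference, and HSD17B2 in HUG1N was -1.64 (adjusted p = 0.00428). SULT1E1 and SULT2B1 had no value under a filter at log2 5, and the difference between the lines none with a line fitted alone.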
